A study of Rattus norvegicus with 24 samples.

Results

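Irf7 (ENSRNOG00000017414) and Irf9 (ENSRNOG00000019478) are the interferon regulatory factors described here, 2 of the 32883 genes listed in a table of RNA-seq read counts from rat kidney. They were chosen by name, and their levels come from their rows in that table. Kidney RNA was sequenced from 12 female rats, 3 in each of 4 groups. The groups were Sprague-Dawley rats (CD) that were non-pregnant (CD-NP) or at day 18 of pregnancy (CD-P18), and Brown Norway rats (BN) that were non-pregnant (BN-NP) or at day 18 (BN-P18). The pregnant rats had been mated with males of their own strain, no other treatment is stated, and the rats were 2 months old (6 to 8 weeks by another field of the labels). CD rats served the study as the normal pregnancy and BN rats as a pregnancy with placental insufficiency and raised blood pressure. No gene was altered in either strain. Each RNA sample came from a cross-section of 1 rat's kidney that held cortex and medulla.

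Interferon regulatory factors bind DNA and set the transcription of the genes that interferons switch on. Irf9 is the DNA-binding part of ISGF3, a complex it enters with Stat2 once type I or type III interferon has met its receptor. ISGF3 binds the interferon-stimulated response element in the promoters of antiviral genes, the gene of Irf7 among them. Irf7 is activated by kinases that act below sensors of viral nucleic acid, and it then drives the genes of type I interferon, so it is known as the amplifier of that response.

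The stretches before both gene starts are shown because each carries letters that interferon-activated factors are known to read. They are RefSeq sequences of the GRCr8 assembly, 250 bases up to the gene start, while the reads were counted on the older Rnor_6.0 assembly. In the sequence of Irf7, at chr1:205800024-205800273 on the minus strand, the capitals begin 69 bases before the start. They mark the core of an interferon-stimulated response element, GAAANNGAAA, which reads in the opposite orientation. In the sequence of Irf9, at chr15:33065586-33065835 on the plus strand, the capitals mark the core of a gamma-activated site, TTCNNNGAA, an element of interferon gamma responses, 99 bases before the start.
Irf7: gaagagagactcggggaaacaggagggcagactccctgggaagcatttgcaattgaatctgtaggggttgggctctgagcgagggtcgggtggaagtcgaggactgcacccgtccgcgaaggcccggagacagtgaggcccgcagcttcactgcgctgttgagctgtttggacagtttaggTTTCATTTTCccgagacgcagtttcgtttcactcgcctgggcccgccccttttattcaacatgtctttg
Irf9: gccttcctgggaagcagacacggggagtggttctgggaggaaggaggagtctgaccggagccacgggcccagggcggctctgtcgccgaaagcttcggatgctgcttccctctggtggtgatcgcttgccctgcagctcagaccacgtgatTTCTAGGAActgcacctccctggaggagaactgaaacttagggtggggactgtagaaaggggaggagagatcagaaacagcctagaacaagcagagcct

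Searched on both strands, GAAANNGAAA was found in 3.41% of the 33469 promoters in the RefSeq table and TTCNNNGAA in 7.67%, over the same 250 bases. The window of Irf9 held no GAAANNGAAA and that of Irf7 no TTCNNNGAA, which says only that these letters are not in these windows. A match is a run of letters and not a measured binding site.

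The libraries held 8274159 to 11879451 reads on genes, with a median of 9610369.5. Levels are given as CPM, the reads of a gene per 1000000 reads on genes after scaling of the libraries by the trimmed mean of M-values. Of all genes, 14212 had enough reads to be tested, both members among them. Markers of the tissue were present in all 12 libraries: Slc34a1 (the phosphate transporter of the proximal tubule), Slc12a3 (the sodium chloride transporter of the distal tubule) and the podocyte gene Nphs1 summed to 2260 to 4100 CPM. Rat 3 of BN-P18 had the highest value of its group for 30 of 33 interferon-stimulated genes, a share not computed over all tested genes. It lay above its group mean for 32 of the 33, against 48.4% of all tested genes. Single rats of other groups led too, rat 2 of BN-NP for 20 of the 33 and rat 3 of CD-P18 for 17. The comparisons of the members that turn on rat 3 of BN-P18 are given with and without it.

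Irf7 was higher in the kidneys of pregnant rats in both strains. In CD-NP its level was 25.9, 11.4 and 18.2 CPM in rats 1 to 3, from 108 to 268 reads. In CD-P18 it was 64.5, 68.7 and 78.0 CPM. The CD groups did not overlap, and the lowest pregnant rat stood 2.49 times above the highest non-pregnant rat. The share of all tested genes whose groups did not overlap was not computed, here or for the comparisons below.

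In BN-NP the level of Irf7 was 11.5, 24.8 and 20.3 CPM, from 106 to 204 reads. In BN-P18 it was 37.9, 37.4 and 79.6 CPM. The BN groups did not overlap either, with a gap of 1.51 times, and rat 3 of BN-P18 lay above the sum of the other two.

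The mean of Irf7 went from 18.5 ± 7.27 CPM (CD-NP) to 70.4 ± 6.88 CPM (CD-P18), and from 18.9 ± 6.77 (BN-NP) to 51.6 ± 24.2 (BN-P18; SD, n = 3). By edgeR's quasi-likelihood test over all tested genes, Irf7 rose 3.79-fold in CD (95% confidence interval 2.32 to 6.17; log2 fold change 1.92, SE 0.328, adjusted p = 0.00715). A call needed both an adjusted p below 0.1 and one group more than 25% above the other, and 2.56% of all tested genes were called higher and 2.15% lower in this comparison. In BN it rose 2.74-fold (1.67 to 4.49; log2 1.45, SE 0.332, adjusted p = 0.0766), where 0.823% of genes were called higher and 0.577% lower. The call in BN was close to the threshold. It was lost without rat 3 of BN-P18, when the log2 fold change was 1.003 (adjusted p = 0.227), and without any of the 3 BN-NP rats or without rat 1 or 2 of CD-P18 (adjusted p from 0.102 to 0.268).

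Irf9 rose in both strains with less scatter between rats. Its level was 15.6, 12.8 and 14.2 CPM in CD-NP and 34.7, 36.8 and 39.5 CPM in CD-P18. In BN-NP it was 15.0, 14.4 and 13.4 CPM, and in BN-P18 29.2, 29.3 and 34.4 CPM. All 6 pregnant rats lay above all 6 non-pregnant rats, and the lowest pregnant rat stood 2.23 times above the highest non-pregnant rat in CD and 1.95 times in BN. These values came from 118 to 161 reads in non-pregnant and 272 to 405 reads in pregnant rats.

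The mean of Irf9 went from 14.2 ± 1.40 CPM (CD-NP) to 37.0 ± 2.42 CPM (CD-P18), and from 14.2 ± 0.817 (BN-NP) to 31.0 ± 3.01 (BN-P18; SD, n = 3). Irf9 rose 2.60-fold in CD (95% interval 2.22 to 3.05; log2 1.38, SE 0.106, edgeR adjusted p = 6.7e-05) and 2.17-fold in BN (1.85 to 2.55; log2 1.12, SE 0.107, adjusted p = 0.000533). Among the 14212 genes it had the smallest p in CD and the second smallest in BN, although by fold change it stood at rank 90 in CD and 101 in BN. By p Irf7 ranked 94 in CD and 125 in BN, and by fold change 29 and 46.

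**Figure D1:**
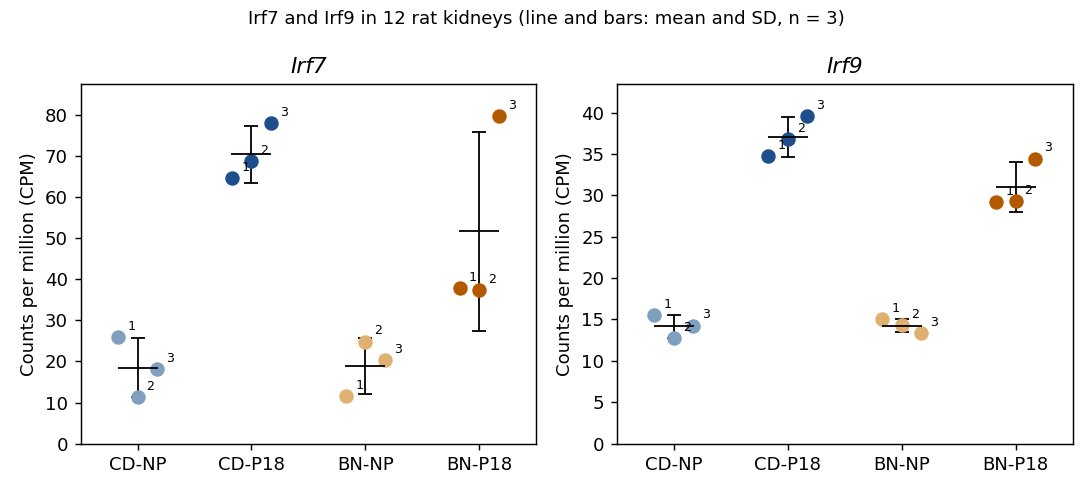
Level of Irf7 (left) and Irf9 (right) in CPM (y axis) in each of 12 kidneys by group (x axis), with the rat's number beside its point, and the mean and SD of 3 rats as a line with bars. The pregnant groups lie above the non-pregnant ones for both genes, and rat 3 of BN-P18 stands alone for Irf7 at 79.6 CPM.

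Averaged over the strains, pregnancy was accompanied by a rise of Irf7 of 1.69 on the log2 scale (3.22-fold, 95% interval 2.27 to 4.56, edgeR adjusted p = 0.00175) and of Irf9 of 1.249 (2.38-fold, 2.12 to 2.66, adjusted p = 3.07e-06). Irf9 had the smallest p of all tested genes here and Irf7 the rank 42. In this contrast 1.72% of genes were called higher. An exact permutation test that exchanged the stages within each strain gave two-sided p = 0.005 for Irf7 and p = 0.005 for Irf9, the smallest value that its 400 arrangements allow (0.0075 each after Benjamini-Hochberg adjustment over the 3 exact tests of this kind).

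The strains were compared within each stage. Neither gene differed detectably between non-pregnant BN and CD rats. The ratio BN-NP to CD-NP was 1.01 for Irf7 (95% interval 0.601 to 1.71, edgeR adjusted p = 0.986) and 1 for Irf9 (0.847 to 1.19, adjusted p = 0.991). For Irf7 these intervals still leave room for changes past the 25% that a call needs. In this comparison 8.38% of all genes were called.

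At day 18 both genes averaged lower in BN than in CD, and neither was called, where 9.60% of all genes were. The ratio BN-P18 to CD-P18 was 0.732 for Irf7 (95% interval 0.466 to 1.15, edgeR adjusted p = 0.439) and 0.836 for Irf9 (0.721 to 0.971, unadjusted p = 0.0221, adjusted p = 0.146). Whether the genes were called turned on rat 3 of BN-P18. That rat was the highest of its group for both genes, so leaving it out had to lower the BN-P18 mean. Without that rat the log2 difference was -0.90 for Irf7 (adjusted p = 0.083) and -0.34 for Irf9 (adjusted p = 0.088), and both genes were then called lower in BN-P18. With any other single rat left out, neither gene was called.

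The interaction of pregnancy with strain asks whether the rise differed between strains. It was -0.47 on the log2 scale for Irf7 (95% interval -1.47 to 0.53, edgeR adjusted p = 0.758) and -0.26 for Irf9 (-0.58 to 0.06, adjusted p = 0.522), with 0.943% of genes called. For Irf7 the value was -0.92 without rat 3 of BN-P18 (adjusted p = 0.353), -0.80 without rat 1 of CD-NP and -0.73 without rat 1 of BN-NP. It was -0.22 without rat 2 of CD-NP, -0.23 without rat 2 of BN-NP, and -0.29 and -0.28 without rats 1 and 2 of BN-P18, each left out alone, with no call in any of these cases. The rise was thus not shown to differ between CD and BN, and these intervals leave room for a rise in BN that is smaller by more than a factor of 2 for Irf7. From high to low the groups ran CD-P18, BN-P18, BN-NP, CD-NP for both genes. The neighbours CD-P18 and BN-P18 were not called different, nor were BN-NP and CD-NP, whereas the step between BN-P18 and BN-NP was called for both.

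**Figure D2:**
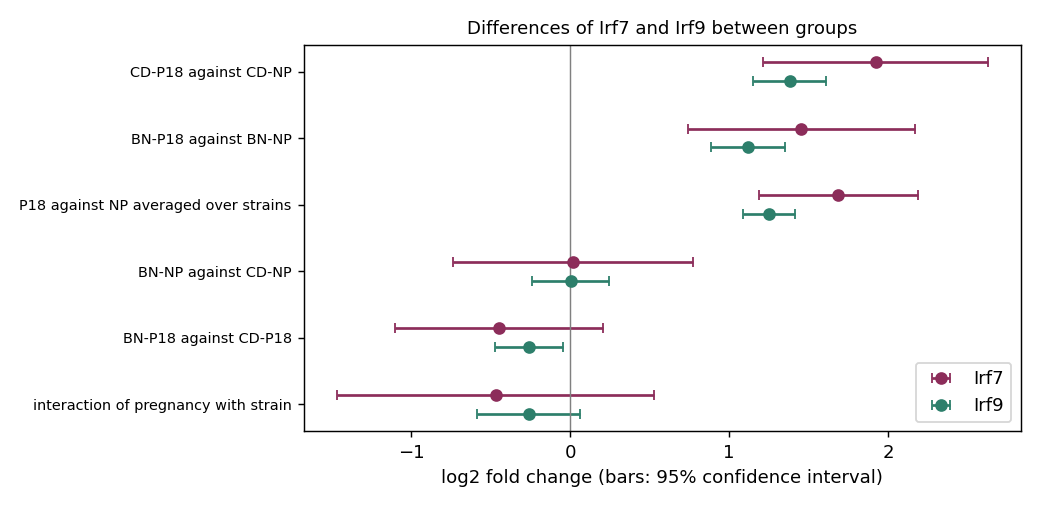
Fitted log2 fold changes (x axis, points) of Irf7 and Irf9 with 95% confidence intervals (bars) for the 6 comparisons (y axis), from an edgeR fit of all 12 libraries. The 3 pregnancy comparisons lie above 0 for both genes, the intervals of Irf7 are wider, and the interval of Irf9 alone excludes 0 for BN-P18 against CD-P18.

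The members differed in how much single rats of a group scattered. The coefficient of variation of Irf7 was 39.3% (CD-NP), 9.77% (CD-P18), 35.8% (BN-NP) and 46.9% (BN-P18), while counting alone gives 3.76 to 7.97%. For Irf9 it was 9.89%, 6.54%, 5.73% and 9.71%, close to the 5.17 to 8.86% that counting alone gives. The pooled SD within groups was 0.518 on the log2 scale for Irf7, at percentile 93.3 of all tested genes, and 0.116 for Irf9, at percentile 29.0. The median over all tested genes was 0.165. Irf7 thus changed by the larger factor and Irf9 with the smaller p.

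The larger factor of Irf7 was itself not shown to differ from that of Irf9. In each rat the log2 level of Irf7 minus that of Irf9 removes everything that scales a whole library. Its mean was 0.30 ± 0.45 (CD-NP), 0.92 ± 0.05 (CD-P18), 0.33 ± 0.62 (BN-NP) and 0.64 ± 0.49 (BN-P18; SD, n = 3). Pregnant rats averaged 0.46 higher, with p = 0.11 in the exact two-sided permutation test within strains (0.11 after the same adjustment). The difference was 0.285 without rat 1 of BN-NP (exact permutation p = 0.265), 0.322 without rat 3 of BN-P18 (exact permutation p = 0.28) and 0.346 to 0.574 without any other single rat. The 3 CD-P18 rats were alike, from 0.89 to 0.98, and the other groups each spread over more than 0.8.

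Within groups, the rats that stood high for Irf7 tended to stand high for Irf9. The correlation of their deviations from the group means was r = 0.631 (Pearson, exact permutation p = 0.098) and rho = 0.573 (Spearman, exact permutation p = 0.0988) over 12 rats. Without the 2 rats farthest from the median, rat 3 of BN-P18 and rat 1 of BN-NP, r was 0.939 (exact permutation p = 0.0139). Rat 1 of BN-NP had the lowest Irf7 of its group and the highest Irf9, and without that rat alone r was 0.957 (exact permutation p = 0.00463). Without rat 3 of BN-P18 alone it was 0.432 (exact permutation p = 0.407), so this relation turned on single rats in both directions. Within a stage r was 0.409 over the 6 NP rats (exact permutation p = 0.556) and 0.925 over the 6 P18 rats (exact permutation p = 0.0556), of which 5 would be left without rat 3 of BN-P18, too few for a correlation. Adjusted by Benjamini-Hochberg over these 3 overlapping relations, the exact permutation p was 0.147 for the 12 rats, 0.556 for NP and 0.147 for P18.

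The deviations of other interferon genes were set beside those of the members. Of 33 interferon-stimulated genes, 31 had deviations that correlated positively with those of Irf7 over the 12 rats (median r = 0.618) and 29 with those of Irf9 (median r = 0.54). Over all tested genes 47.9% and 48.9% were positive. Without rat 3 of BN-P18 the counts were 29 of 33 for Irf7 (median r = 0.435) and 25 of 33 for Irf9 (median r = 0.352), against 49% and 50.4% of all tested genes. The deviations of 1 library share its RNA sample and scaling, so these values are a description. Rat 3 of BN-P18 had a median deviation of 0.32 on the log2 scale over the 33 genes and 0.72 for Irf7. Rats 1 and 2 of the same group had -0.16 and -0.18 over the 33 genes, and -0.35 and -0.37 for Irf7. In every rat the median deviation of all tested genes stayed between -0.01 and 0.01.

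**Figure D3:**
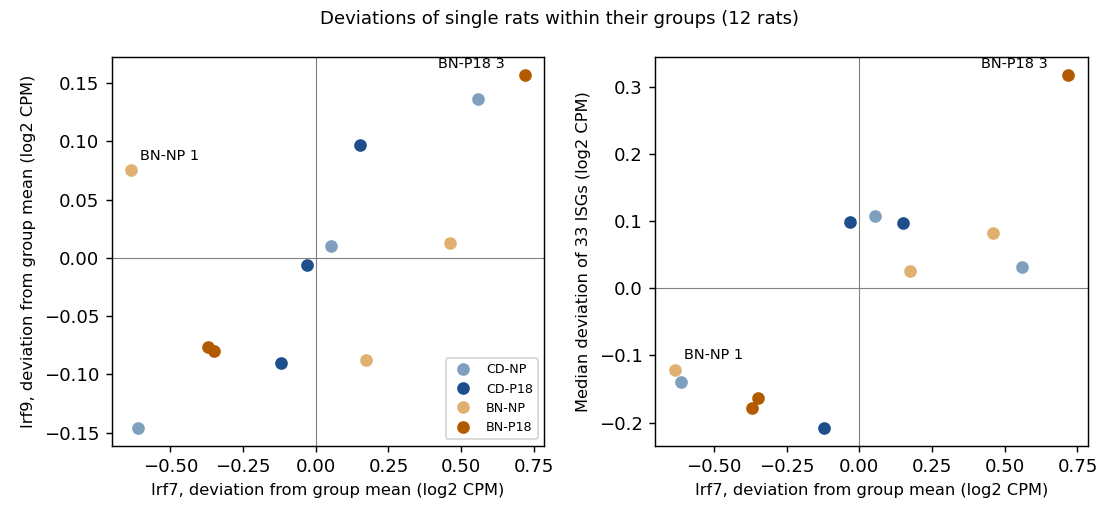
Deviation of single rats from their group mean, in log2 CPM, for Irf7 (x axes) against Irf9 (left y axis) and against the median of 33 interferon-stimulated genes, ISGs (right y axis), with 12 points coloured by group. Rat 3 of BN-P18 is highest on all axes, and rat 1 of BN-NP is low for Irf7 at -0.63 and above its group mean for Irf9 at 0.08.

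The genes most like the members were named by the highest Pearson r of log2 CPM over the 12 rats, in which the difference between stages takes the largest share. For Irf7 they were Eif2ak2 (r = 0.972), the kinase PKR that halts translation on sensing double-stranded RNA, Pml (0.971), the organizer of nuclear bodies, Oas2 (0.971), an oligoadenylate synthetase, Lgals9 (0.966), a galectin, and Lgals3bp (0.957), a galectin-binding protein. For Irf9 they were Oas2 (0.973), Adar (0.968), which edits double-stranded RNA, Eif2ak2 (0.966), Slfn4 (0.964), a schlafen gene, and ENSRNOG00000059097 (0.964), for which no symbol was paired. Irf7 and Irf9 themselves reached r = 0.928, which put Irf9 at rank 20 for Irf7 and Irf7 at rank 19 for Irf9 among all tested genes. All of the genes named as most like the members were called higher in both strains. They were chosen on these same 12 libraries for their likeness to genes that rose at day 18. Their calls and adjusted p-values are therefore no independent evidence. For ENSRNOG00000059097 the log2 fold change was 1.58 in CD (edgeR adjusted p = 0.000209) and 1.73 in BN (adjusted p = 0.000449). Oas2 rose the most of them, from 3.07 to 16.6 CPM in CD (log2 2.42, edgeR adjusted p = 0.000832) and from 2.98 to 12.1 CPM in BN (log2 2.03, adjusted p = 0.00826).

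Promoter sequences were at hand for 5 of these 8 genes, and 3 of them held the same core as Irf7. They are shown, in the orientation of the core and with the core in capitals, to let the flanks be compared. The windows lie in GRCr8 at chr1:205800073-205800102 (plus strand) for Irf7, chr6:21941128-21941157 (plus) for Eif2ak2, chr10:64428067-64428096 (plus) for Lgals9 and chr10:104127879-104127908 (minus) for Lgals3bp.
Irf7: tgcgtctcggGAAAATGAAAcctaaactgt
Eif2ak2: agtccgccggGAAAACGAAAcagagagaac
Lgals9: actcagctagGAAACAGAAAccacagctac
Lgals3bp: gtgttttctgGAAATCGAAActagactagg

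Counted along each gene's own strand, the stretches with the cores begin 69, 16, 16 and 50 bases before the gene starts. For Irf7 and Lgals9 the core reads in the opposite orientation there. Of the 33 interferon-stimulated genes, 25 had a promoter in the table, and 17 of these held GAAANNGAAA, against 3.41% of all promoters. TTCNNNGAA, marked for Irf9, was in 5 of the 25, against 7.67% of all promoters. None of the 5 promoters of the genes most like the members held TTCNNNGAA. The letters are part of how such genes are known to be controlled, and no binding was measured here.

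The other genes of the pathway are given by their role. Symbols could be attached only to genes in the study's supplementary gene table, a table restricted to genes that reached an unadjusted p below 0.01 for at least 1 contrast of these same samples. The genes with a row therefore lean towards genes that differed, and their counts are not independent evidence of a direction. Of the 9 genes of the IRF family 4 could be identified, and apart from the members these were Irf1 and Irf8, neither of which was called for pregnancy. Irf1, an activator in the interferon gamma response, had log2 fold changes of -0.28 in CD (edgeR adjusted p = 0.267) and 0.37 in BN (adjusted p = 0.285). Irf8, a factor of myeloid cells, had -0.18 (adjusted p = 0.668) and 0.27 (adjusted p = 0.69), and was lower in BN-NP than in CD-NP by 0.64 (adjusted p = 0.0544).

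Among the interferon receptors and partners of Irf9, 4 of 10 genes could be identified. Of these 2 were called higher in CD and 1 in BN, against 2.56% and 0.823% of all tested genes. Stat2, which joins Irf9 in ISGF3, rose from 47.5 to 69.9 CPM in CD (log2 0.56, edgeR adjusted p = 0.0147) and from 48.0 to 66.3 in BN (log2 0.47, adjusted p = 0.0776). Stat2 thus rose by a smaller factor than Irf9, a difference that was not tested. Outside the rule for named genes, 2 receptor chains are given, chosen after their values were seen. Ifngr1 was called higher in CD, at log2 0.39 (adjusted p = 0.0446), whereas it was 0.14 in BN (adjusted p = 0.711). Ifngr2 was called in neither strain, at -0.35 in CD (adjusted p = 0.154) and 0.28 in BN (adjusted p = 0.444). At day 18 Ifngr2 was called higher in BN than in CD, by log2 0.50 (adjusted p = 0.0257). The median of the 4 genes was 0.32 in CD and 0.21 in BN, and that of all tested genes -0.01 and 0.00. None of the 13 interferon genes on the list of ligands could be identified, so the ligands are not described.

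Of the sensors and kinases that act upstream of Irf7, 8 of 19 could be identified. Of these 4 were called higher in CD and 5 in BN, against 2.56% and 0.823% of all tested genes. Tlr7, the endosomal receptor for single-stranded RNA, rose from 6.54 to 15.3 CPM in CD (log2 1.22, edgeR adjusted p = 0.00332) and from 5.28 to 9.96 in BN (log2 0.92, adjusted p = 0.0604). Ddx58, which codes for the RNA sensor RIG-I, rose by log2 1.02 in CD (adjusted p = 0.00119) and 0.57 in BN (adjusted p = 0.0767). Ifih1, which codes for the RNA sensor MDA5, rose by 0.85 (adjusted p = 0.015) and 0.79 (adjusted p = 0.059), and their relative Dhx58 by 1.59 (adjusted p = 0.0107) and 1.22 (adjusted p = 0.0925). Ikbke, a kinase that can phosphorylate Irf7, also chosen after its values were seen, was the only identified gene of this list that was called lower, by log2 -0.51 in CD (adjusted p = 0.0867), and had 0.15 in BN (adjusted p = 0.813). The median was 0.77 in CD and 0.66 in BN.

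Of the interferon-stimulated genes, the class that ISGF3 switches on, 33 of 40 could be identified. Of these 26 were called higher in CD and 26 in BN, against 2.56% and 0.823% of all tested genes. None was called lower, and 20 were called in both strains. The shares of all tested genes called in both strains or in 1 alone were not computed. In the average over strains 30 were called higher, where 1.72% of all genes were. Their median log2 fold change was 0.96 in CD and 0.94 in BN. By the rule for named genes the examples are Oas2, given above, and Helz2, Parp12 and Ifi27. Helz2, a helicase, rose by 0.53 in CD (edgeR adjusted p = 0.002) and 0.68 in BN (adjusted p = 0.00166). Parp12, an ADP-ribosyltransferase, rose by 1.12 (adjusted p = 0.000411) and 0.81 (adjusted p = 0.00999).

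Ifi27 rose from 37.9 to 195 CPM in CD (log2 2.36, edgeR adjusted p = 0.000205) and from 29.6 to 66.1 CPM in BN (log2 1.16, adjusted p = 0.0394). It was lower in BN-P18 than in CD-P18 by log2 -1.56 (adjusted p = 0.000573), while none of the 33 genes was called in the interaction. The count in BN depended on single rats, with 16 genes called without rat 3 of BN-P18, 8 without rat 1 and 15 without rat 2 of BN-NP.

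Chosen after their values were seen, the genes called in 1 strain alone were 6 in each. In CD these were Dtx3l, Ifi35, Oas1b, Oas3, Trim25 and Xaf1. In BN they were Gbp2, Ifit2, Psmb9, Rsad2, Tap1 and Zbp1, and Sp100 was called in neither. The 6 genes called in BN alone had log2 fold changes from -0.24 (Psmb9) to 0.67 (Ifit2) in CD, and the 6 called in CD alone from 0.08 (Ifi35) to 1.55 (Oas3) in BN. With no interaction called, these splits do not show that the strains differed. Oas1a and Oas1b are near copies of each other, and their reads may have been divided between them.

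Of 6 negative regulators 3 could be identified. Usp18, the protease that removes Isg15 and damps the interferon receptor, rose from 4.24 to 17 CPM in CD (log2 1.99, edgeR adjusted p = 0.0119) and from 3.66 to 14.4 CPM in BN (log2 1.99, adjusted p = 0.0394). Socs3, an inhibitor of Jak kinases, rose by 1.55 in CD (adjusted p = 0.0863) and had 1.31 in BN (adjusted p = 0.25). Trim21, an antibody receptor and ubiquitin ligase that acts on interferon regulatory factors, rose by 0.38 (adjusted p = 0.0805) and had 0.39 in BN (adjusted p = 0.139).

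**Figure D4:**
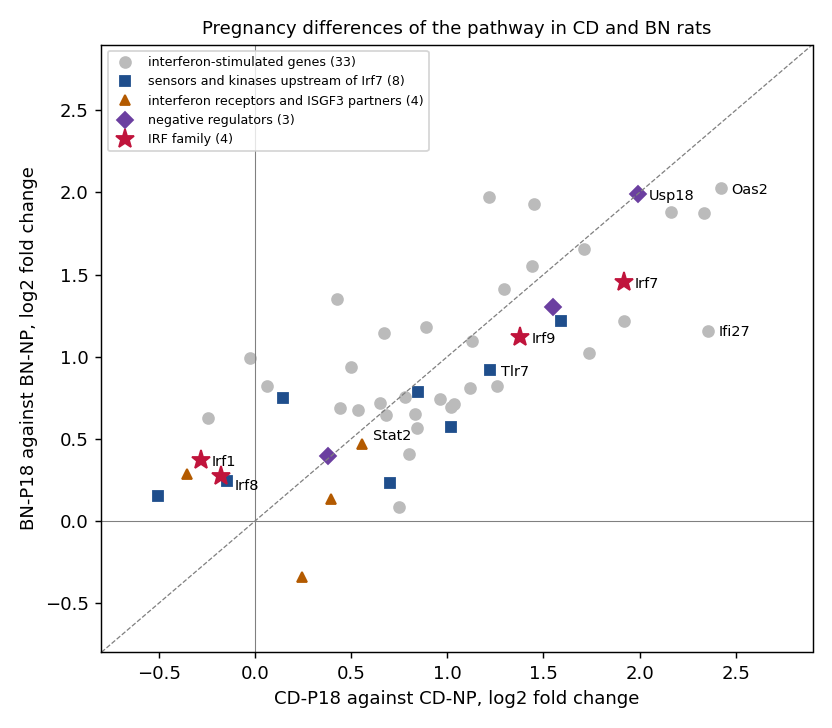
Log2 fold change of P18 against NP in CD (x axis) and BN (y axis) for the identified genes of 5 lists of the pathway, 1 point a gene, with equal values on the dashed line. Irf7 and Irf9 lie in the upper right with most interferon-stimulated genes, while Irf1 and Irf8 lie left of 0 in CD and above 0 in BN.

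A kidney section holds several cell types, and in such bulk samples fewer cells of a type and less RNA per cell cannot be told apart. Macrophages and other leukocytes also express Irf7 and Irf9, so their markers were read in the same libraries. Of 10 macrophage markers 7 could be identified, and their summed level was 112 to 128 CPM (CD-NP), 166 to 201 (CD-P18), 105 to 116 (BN-NP) and 135 to 145 (BN-P18). The sums were thus higher in the pregnant groups without overlap, a difference that was not tested. Of the 7 genes, 6 were called higher in CD and 2, C1qa and C1qc, in BN. Of all tested genes 2.56% and 0.823% were called higher. Between strains, 3 of the 7 were called lower in BN-P18 than in CD-P18 and none higher. In BN-NP against CD-NP, 1 was called higher and none lower. Of all tested genes 9.60% and 8.38% were called in either direction in these comparisons. Mrc1, the mannose receptor, rose from 5.16 to 18.9 CPM in CD (log2 1.87, edgeR adjusted p = 0.000298) and was 7.94 and 6.89 CPM in BN (log2 -0.22, adjusted p = 0.79).

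Ptprc (CD45), which marks all leukocytes, ranged from 36.2 to 41.2 CPM (CD-NP), 30.9 to 41.2 (CD-P18), 24.8 to 32.0 (BN-NP) and 31.6 to 39.5 (BN-P18). It was called for pregnancy in neither strain (log2 -0.13, edgeR adjusted p = 0.669 in CD, and 0.39, adjusted p = 0.254 in BN). Between strains, Ptprc was called lower in BN-NP than in CD-NP (log2 -0.47) and was not called at day 18 (0.05). Il3ra was the only identified one of 4 markers of plasmacytoid dendritic cells. It ranged from 11.5 to 13.9 CPM (CD-NP), 7.20 to 10.5 (CD-P18), 8.28 to 9.69 (BN-NP) and 9.14 to 10.9 (BN-P18). Il3ra was called lower at day 18 in CD (log2 -0.55) and was not called in BN (0.16). It was also called lower in BN-NP than in CD-NP (log2 -0.51). S100a9, 1 of 3 neutrophil markers, stayed between 0 and 1.22 CPM. No T cell or B cell marker could be identified. Of 8 kidney markers 3 could be identified. All 3 were called lower at day 18 in CD (median log2 fold change -0.47), as were 2.15% of all tested genes. None was called in BN (median -0.24), where 0.577% of all tested genes were called lower. As in the pathway lists, the identified markers of every cell type lean towards genes that differed in these same samples. The part of leukocytes and of kidney cell types in the levels of Irf7 and Irf9 was not tested.

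For each member 1 gene beside it on the chromosome was read as well, chosen after its values were seen. Other neighbours were not read. Rnf31, which lies beside Irf9, had log2 fold changes of 0.20 in CD (edgeR adjusted p = 0.313) and 0.39 in BN (adjusted p = 0.116). Averaged over the strains Rnf31 had 0.295 (adjusted p = 0.0406), not called because its fold change was 1.23. Cdhr5, beside Irf7, had 0.27 in CD (adjusted p = 0.0787) and -0.09 in BN (adjusted p = 0.762). Neither neighbour was called in either strain, Cdhr5 in CD because its fold change of 1.21 missed the 25% that was needed.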

How the data were processed

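Kidney RNA of 12 female rats was sequenced as stranded libraries depleted of ribosomal RNA. Per the methods and the submitters' notes, the authors trimmed reads with Trimmomatic, aligned them to Rnor_6.0 with STAR 2.5.2 and deposited HTSeq 0.6.1 counts, unnormalized read counts per Ensembl gene. Summary lines that name no gene (72.5 to 75.6% of entries) were left out. The counts were tested with edgeR 4.0.16 (filterByExpr, trimmed mean of M-values, quasi-likelihood F test with 1 spread for 4 groups, Benjamini-Hochberg over 14212 genes), on R 4.3.3, and levels were written as log2 CPM with a prior count of 2. Calls needed an adjusted p below 0.1 with one group more than 25% above the other, the study's thresholds, and for the interaction the p alone. The scripts were tested on simulated data.

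Single values were compared by exact permutation over rats. Each replicate was a rat, and females were caged singly. All replicate pairs differed by 5.16 to 12.2 times the counting noise (chi-square per gene), and each was kept as its own replicate.

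Symbols were attached by matching log2 values of the study's gene table (3063 of 3064 symbols, within 0.02 log2 units), and none of its values is reported. As a check on false matches, the sign of its fold changes was turned, and 10.7% of symbols still found a match. Of the paired symbols, 1248 were matched on 2 or more comparisons, so single names may be wrong. Genes named are the members, other identified IRF genes, Stat2 and Usp18, up to 4 genes per pathway list with the smallest p for pregnancy among called genes, and the 5 nearest in pattern. Ifngr1, Ifngr2, Ikbke, Sp100, Rnf31, Cdhr5 and the interferon-stimulated genes called in 1 strain were named after their values were seen. Marker genes come from lists of markers. The members and lists were chosen with earlier results of these data known, and 2 genes of the lists are not reported here. The bisulfite libraries were not used here, since no gene coordinates of Rnor_6.0 were at hand. Alternatives were other scalings, filters, thresholds, robust estimation, DESeq2 1.42.0, the compared libraries alone, a replicate block, and each library left out. Deviations without rat 3 of BN-P18 were added after seeing the data.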

Additional observations from a re-analysis of the deposited data

Results flagged for a closer look

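Among the marker genes read beside Irf7 and Irf9, 3 passed the interaction test, which 0.943% of all tested genes passed. The difference between the pregnancy effects, BN minus CD, was -2.08 on the log2 scale for Mrc1, -1.02 for C1qb and 0.54 for Slc12a3. Mrc1 and C1qb are macrophage markers that were higher at day 18 in CD (log2 1.87 and 1.31) and had -0.22 and 0.29 in BN. Slc12a3, the sodium chloride transporter of the distal tubule, was lower at day 18 in CD (log2 -0.44) and had 0.10 in BN. Whether these differences bear on the levels of Irf7 and Irf9 was not tested. Groups of 3 rats are too small for the test of outlying samples, so no single rat was tested in that way.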

How the results depend on the processing

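Irf9 kept its call and direction for pregnancy under all 21 alternatives in CD and in BN, and Irf7 under all 21 in CD (log2 1.67 to 2.26). Irf7 in BN kept its direction under all 21 and its call under 12. It lost the call at the stricter thresholds (log2 1.45, adjusted p = 0.0766), under robust estimation (1.45, adjusted p = 0.217) and with the 6 BN libraries alone (1.45, adjusted p = 0.109), and ran from 1.003 to 1.696 as libraries were left out. The count of interferon-stimulated genes called in BN ran from 8 to 26 without single libraries. Without single libraries, BN-NP against CD-NP ran from -0.23 to 0.35 for Irf7 and from -0.067 to 0.078 for Irf9, which was -0.001 under upper-quartile scaling, and BN-P18 against CD-P18 from -0.90 to -0.26 for Irf7 and from -0.34 to -0.21 for Irf9. The interaction ran from -0.922 to -0.217 for Irf7 and from -0.344 to -0.191 for Irf9, and the difference of Irf7 minus Irf9 between stages from 0.285 to 0.574. The within-group correlation ran from 0.432 to 0.957 and was 0.939 without the 2 rats farthest from the median. The causes of these changes were not tested. The labels do not say that a replicate number pairs rats, and same-numbered rats correlated from -0.188 to 0.27. In groups this small these correlations cannot exclude a shared litter, batch or day. With the replicate block, Irf7 had 1.91 in CD and 1.41 in BN (adjusted p = 0.0603) and Irf9 1.38 and 1.12, and calls over all genes rose from 199 to 286 in BN and from 134 to 235 in the interaction, with no call of a member changed. The planned comparison of promoter methylation and its alternatives were not run. Counting limits the precision of Irf9 in non-pregnant rats, at 118 to 161 reads, while the spread of Irf7 there exceeds counting error.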
